A study of Oryza sativa with 72 samples.

Results

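The comparison set the latest fully expanded leaf of rice after 9 days of severe drought against the same leaf of plants that stayed irrigated. The series holds 72 RNA sequencing libraries in 24 groups of 3, from 2 leaf positions of the cultivar IR64, an indica rice, at 6 stages of drought and rewatering. The drought group was the latest leaf of IR64 under severe drought on day 9, with replicates 1 and 3. Its control group, labelled control (severe drought), was the same leaf on the same day, with replicates 1, 2 and 3. Together they make 5 of the 72 libraries. Drought replicate 2 was left out of the fit because it held 1755 counts, while the smallest total among the other 71 libraries was 6370914. Its counts are used below only as a library that took no part in the calls.

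Per the labels, every plant was grown singly in a pot of calcined clay. At 14 days after sowing the pots of the drought group were raised above their water supply so that they drained for 9 days, while the control pots stayed irrigated. The labels number the replicates without saying whether each is a different plant. The p-values therefore cover the spread from library to library, part of which may be technical. Leaves were extracted whole, so a lower count cannot tell fewer cells of a type from less RNA per cell.

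When roots run short of water, rice leaves accumulate abscisic acid, a hormone that closes stomata and turns on genes for protective proteins such as dehydrins, osmolyte synthesis and detoxification. Genes for photosynthesis and cell growth commonly fall in drought-stressed leaves. None of these genes can be picked out here, because the count table carries no gene identifier and the gene table used here cannot be joined to it. Each line is called a feature and is named by its place in the table. For the same reason the leaf label could not be checked against marker genes, and the gene groups just named were not tested.

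Total counts were 18122395 and 22131076 in drought replicates 1 and 3, and 20249158, 7979997 and 15428825 in control replicates 1, 2 and 3. Features with at least 1 count numbered 26504 and 27599 in the drought libraries and 26991, 24103 and 25819 in the controls. The 10 most abundant features took 9.96% and 8.27% of the counts in the drought libraries and 13.3%, 10.2% and 17.2% in the controls, highest in control replicate 3. The factors from the trimmed mean of M values, which correct a library total for such dominant features, were 0.945 and 1.04 in drought libraries and 0.815, 0.909 and 0.754 in controls. In all, 33045 features had a count in any of the 5 libraries and 21037 features passed the low-count filter. The features left untested held at most 0.0864% of the counts of a drought library and 0.0777% of a control library.

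By shares of counts, a measure that weighs abundant features most, the drought and control libraries were not separated. The share of counts placed on different features between 2 libraries was 11.3% between the drought libraries, and 12.7%, 13.4% and 21.9% between the pairs of controls. Between a drought and a control library it ran from 10.9% to 28.2% over the 6 pairs. The smallest of these 6 values joined drought replicate 1 and control replicate 2, and the largest joined drought replicate 3 and control replicate 3. Drought libraries were thus no farther from control replicate 2 than some libraries of 1 group were from each other. Spread within groups, as the root mean square SD of log2 CPM (counts as a rate per library total, adjusted by the trimmed mean of M values), was 0.348 over the 2 drought libraries and 0.542 over the 3 controls.

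Single features nonetheless differed in both directions. The edgeR quasi-likelihood test, fitted to the 35 usable libraries of the latest leaf, called 2428 of 21037 features at a Benjamini-Hochberg adjusted p under 0.05, which is 11.5%. Of these, 1145 (5.44% of those tested) were higher in drought leaves and 1283 (6.1%) were lower. An unadjusted p under 0.05 was found for 5815 features. The median fitted log2 fold change, drought over control, was 0.86 in the higher set and -1.09 in the lower set, against 0.00 over all features tested. A fit of the 5 libraries alone called 3 of 19626 features, all higher in drought leaves, and feature 19306, described below, was among them. That fit lacks the spread of the other groups and has its own filter and scaling, and which of these mattered was not tested. The count of 2428 thus depended on the other groups being in the fit. It fell to 1073 without control replicate 3, to 545 without drought replicate 1 and to 816 without drought replicate 3.

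**Figure D1:**
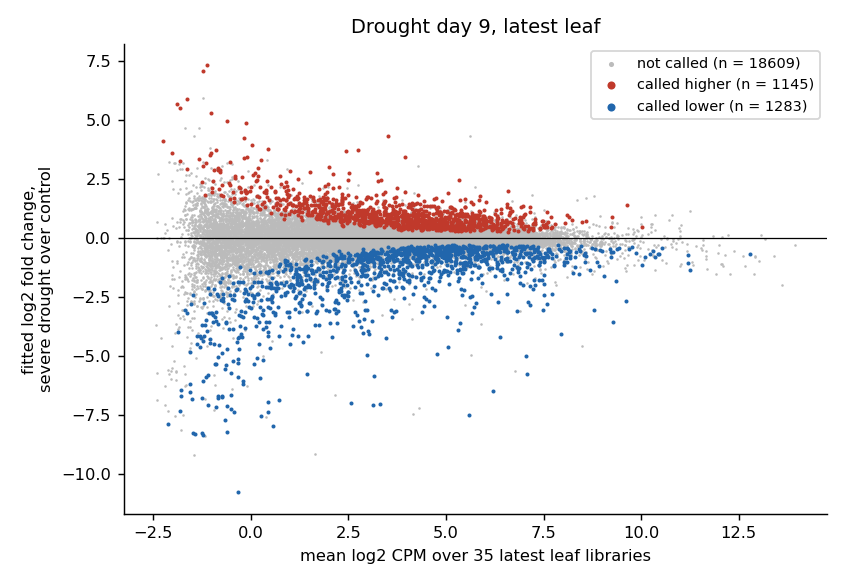
Fitted log2 fold change (severe drought over control) of each of the 21037 features tested at drought day 9 in the latest leaf, against its mean log2 CPM over 35 latest leaf libraries. The 1145 features called higher and the 1283 called lower are coloured, and the falls reach farther from 0 than the rises.

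The falls were larger than the rises among the called features. Over all features tested, the fitted log2 fold changes were nearly symmetric, with quartiles of -0.32 and 0.30. At least a 2-fold fitted change was seen for 446 of the higher and 685 of the lower features (2.12% and 3.26% of the features tested, 5.38% together). At least a 4-fold change was seen for 84 higher and 331 lower features, and at least 16-fold for 11 and 97. Of the higher set 3 features were at 0 in every control, and of the lower set 25 were at 0 in both drought libraries, so their fitted folds are not bounds. With these held at 3 counts in each library of the group at 0, the 4-fold counts became 82 and 325 and the 16-fold counts 8 and 78, and the medians stayed at 0.86 and -1.09.

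Features of every abundance were called, and the direction shifted with abundance. Features were put in 4 equal classes by mean log2 CPM over the 35 libraries. In the lowest class, with a median of 0.858 CPM, 2.66% were called higher and 4.73% lower. The second class (median 5.30 CPM) had 6.05% higher and 5.57% lower. The third (18.7 CPM) had 7.05% higher and 5.76% lower. The highest class (66.6 CPM) had 6.01% higher and 8.33% lower. Among the called features, the median log2 fold change was 1.97 and -2.98 in the lowest class and 0.65 and -0.71 in the highest. Spread fell with abundance. The SD was 0.494 in drought and 0.806 in control libraries in the lowest class, against 0.282 and 0.365 in the highest. A feature of larger spread needs a larger fold to be called, and features at 0 in a whole group enter with their fitted folds. The medians therefore do not show that the size of the changes depends on abundance.

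The summed loss in CPM lay in fewer features than the summed gain. Such sums weigh abundant features most, and the highest abundance class had 438 lower and 316 higher features. CPM is relative to the library, so the sums are not amounts of RNA lost or gained. Summed over the lower set, mean CPM fell by 49596 in drought leaves, and 55 features made up the first 50% of that loss. The 10 largest losses carried 22.1% of it and the largest single one 4.84%. Over the higher set the gain was 18391 CPM, spread so that 131 features made up the first 50% and the 10 largest gains carried 12.5%.

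The strongest falls leaned on control replicate 3. Among the 331 features with at least a 4-fold fall, the median level was 0.445 CPM in drought and 4.71 CPM in control leaves. Control replicate 3 was the highest of the 3 controls for 260 of them, control replicate 1 for 54 and control replicate 2 for 17. Over all features tested these numbers were 7788, 5828 and 7421. The highest control held a median of 57.4% of the summed control CPM. Without control replicate 3 the fit still called 116 of the 331, and without control replicates 1 and 2 it called 267 and 323. Without drought replicates 1 and 3, which leaves 1 drought library assumed to vary like the other groups, it called 67 and 49. The 84 rises of at least 4-fold had median levels of 3.75 CPM in drought and 0.488 CPM in control leaves. Of these, 35 stayed called without control replicate 3, and 56 and 66 without control replicates 1 and 2. Leaving out either drought library, which leaves 1 in that group, ended calls among these rises too.

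Among the 3 controls, control replicate 3 was also the one whose removal ended the most calls of smaller changes. Without it, 231 of the 598 falls under 2-fold and 248 of the 699 rises under 2-fold stayed called. Of these rises, 337 and 578 stayed called without control replicates 1 and 2. Without control replicates 1 and 2, 364 and 513 of these falls stayed called, and without drought replicates 1 and 3, 75 and 127. Of the 598 falls under 2-fold, control replicate 3 was highest for 322, control replicate 1 for 146 and control replicate 2 for 130. Their highest control held a median of 37.5% of the summed control CPM. Their median levels were 24.9 CPM in drought and 37.0 CPM in control leaves. The 699 rises under 2-fold had medians of 29.1 and 18.4 CPM, and drought replicate 1 was the higher of the pair for 404 of them.

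Across the whole called list, 117 of the 1145 higher and 99 of the 1283 lower features were called in each of the 5 fits that left out 1 library. Their median fitted log2 fold changes were 1.17 and -1.41. In each of the 11 alternative fits, 1136 of the higher and 1246 of the lower features were tested and kept their sign. These fits reuse libraries that chose the sets, so kept signs are favoured and do not test the direction. The 2 drought libraries did not overlap the 3 controls in CPM for 1080 of the higher and 1221 of the lower features. Over all features tested, the drought libraries were both above the controls for 18.4% and both below for 18.1%.

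The nearly empty drought replicate 2 gave a check on the called sets, because it had no part in choosing them. The higher set took 5.36% of its counts (94 of 1755, exact 95% binomial interval 4.35% to 6.51%). The same set took 4.41% and 4.57% in drought replicates 1 and 3, and 2.15%, 2.68% and 1.85% in control replicates 1, 2 and 3. The interval of replicate 2 lay above all 3 controls and held both drought values. The interval covers counting error only, and the sets were chosen to differ between the other 5 libraries.

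The lower set gave the mirror image in replicate 2. It took 5.755% of that library's counts (101 of 1755, interval 4.71% to 6.95%). In drought replicates 1 and 3 it took 5.54% and 5.73%, and in control replicates 1, 2 and 3 it took 8.67%, 8.12% and 9.29%. Replicate 2 again lay with the drought libraries and below every control. Across the 30 latest leaf libraries of the other stages, the higher set took 2.67% to 5.58% of the counts and the lower set 7.22% to 10.6%. The lower-set share of replicate 2 was thus also below those 30 libraries, while its higher-set share was inside their range.

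**Figure D2:**
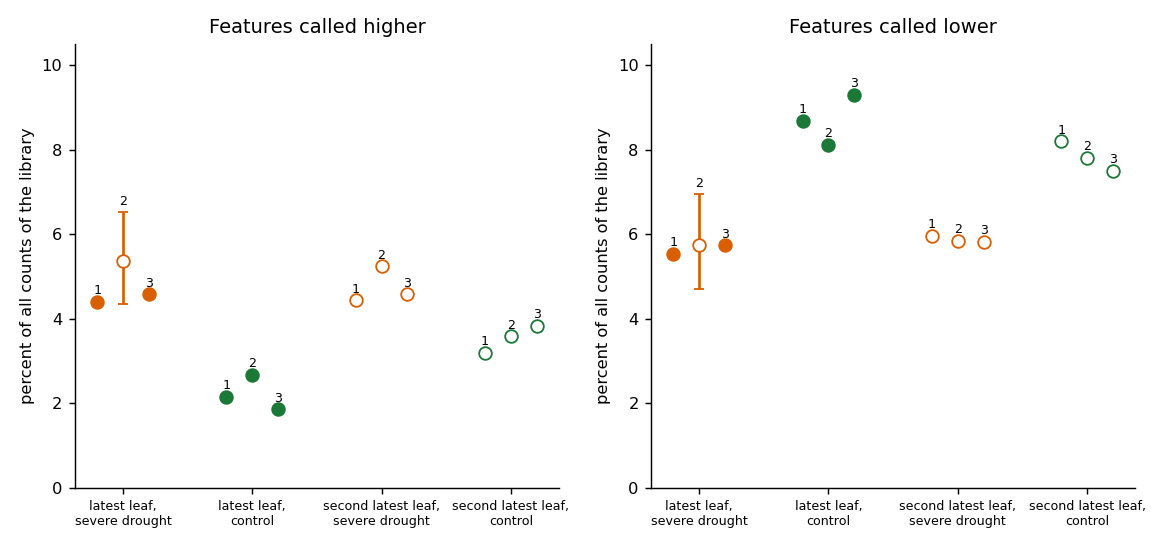
Percent of all counts of each drought day 9 library that fell on the features called higher (left) or lower (right) in the latest leaf, with exact 95% binomial intervals. Filled points are the 5 libraries that chose the sets, open points the 7 that did not, and numbers are replicates. Nearly empty drought replicate 2 stands at 5.36% and 5.755%, with drought replicates 1 and 3.

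The second latest leaf of the same day, whose libraries also took no part in choosing the sets, moved the same way. The higher set took 4.43%, 5.24% and 4.58% of the counts in drought replicates 1 to 3 of that leaf, and 3.20%, 3.585% and 3.84% in its controls. The lower set took 5.97%, 5.83% and 5.82% in drought libraries and 8.19%, 7.81% and 7.50% in controls. Drought and control libraries of that leaf did not overlap in either share. The median fitted log2 fold change in the second latest leaf was 0.34 for the 1144 higher features tested there and -0.45 for the 1226 lower ones, against 0.01 over all its features. That leaf's own fit called 2.5% of its features, 1.09% higher and 1.4% lower. Of the sets, 114 higher and 185 lower features passed there with the sign they had in the latest leaf, and 0 passed with the other sign. As shares of each list, that is 9.96% of the 1145 and 49.8% of the 229 called higher there, and 14.4% of the 1283 and 62.9% of the 294 called lower there. The labels do not say whether same-numbered leaves came from one plant.

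Whether the response differed between the leaves was tested directly, in a fit of all 71 usable libraries. With edgeR 0 of 21824 features were called for a different response, with 1764 at an unadjusted p under 0.05 and 3 called by DESeq2. Leaving out control replicate 2 of the latest leaf gave 114, leaving out control replicate 1 of the second latest leaf gave 3, and leaving out drought replicate 3 of either leaf gave 1. A fit with a block for each treatment, stage and replicate number called 198. The larger median changes in the latest leaf are those of features chosen in that leaf. They do not show that the leaves differed, and the 0 calls do not show that the leaves responded alike.

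Set against other stages, the called features stood away from their usual level in the day 9 controls as well as in the day 9 drought leaves. Levels were set against the mean of the day 6 controls of the same leaf. The 1145 higher features stood at a median of 0.26 on the log2 scale in drought leaves at day 9 and at -0.53 in the day 9 controls. By library, their medians were 0.36 and 0.19 in drought replicates 1 and 3, and -0.51, -0.37 and -0.62 in control replicates 1, 2 and 3. For the higher set the day 9 controls therefore lay farther from the day 6 level than the drought leaves did. In the controls of the other stages (day 0, 2 h of rewatering, and days 3 and 6 of rewatering) the median of this set was between -0.10 and 0.02.

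The lower set leaned the other way. Its 1283 features stood at a median of -0.73 in drought leaves at day 9 and at 0.28 in the day 9 controls. By library, the medians were -0.69 and -0.77 in drought replicates 1 and 3, and 0.24, 0.06 and 0.51 in control replicates 1, 2 and 3. Control replicate 2 was close to the day 6 controls, and control replicate 3 was the farthest above them. Over all features tested the medians were -0.01 in both day 9 groups.

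**Figure D3:**
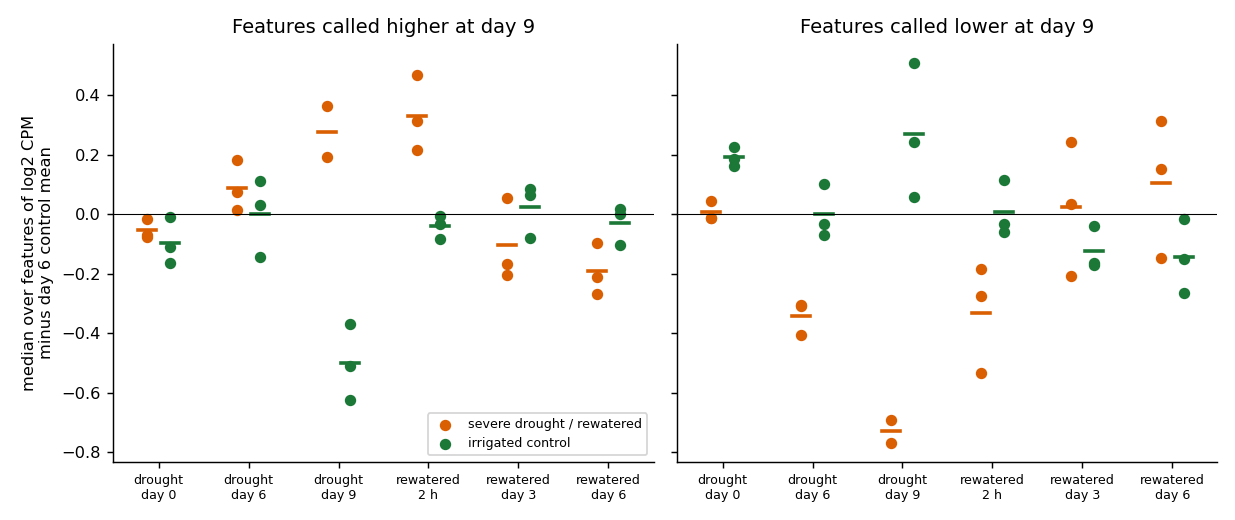
Median over the features called higher (left) or lower (right) at drought day 9 of log2 CPM minus the mean of the day 6 controls, for each latest leaf library by stage; bars are means over the libraries of a group. Day 9 controls sit lowest in the left panel, at -0.37 to -0.62, and day 9 drought leaves lowest in the right panel, at -0.69 and -0.77.

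The same split was counted feature by feature, against the range of the control group means of the 5 other stages. Of the higher features, 309 had a day 9 drought mean above that range with the day 9 control mean not below it (27.0%), which is near the 26.4% found over all features tested. For 400 the day 9 control mean was below the range and the drought mean not above it (34.9%, against 27.8% over all features tested). For 432 of the higher features both held (37.7%, against 4.29%). Of the lower features, 597 had only the drought mean below the range (46.5%, against 27.6% over all features tested). Only the control mean lay above it for 247 (19.3%, against 25.5%), and both held for 430 (33.5%, against 3.85%). Since the sets were chosen for a gap between the day 9 groups, means beyond a range are favoured and no test was made.

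Changes within each treatment between day 6 and day 9 were also fitted. The fit called 25.3% of all features between the day 9 and day 6 controls (12.7% higher and 12.5% lower at day 9). Between the day 9 and day 6 drought leaves it called 11% (5.42% higher, 5.62% lower). The drought comparison had 2 libraries at day 9 and the control comparison 3, so the numbers called do not compare the size of the changes. Over all features tested, the quartiles of the day 9 level relative to the day 6 controls were nearly the same, -0.35 and 0.30 on the log2 scale in drought leaves and -0.36 and 0.31 in controls. Of the 1145 features higher in drought, 565 fell in the controls between day 6 and day 9 and 34 rose there, while 102 rose and 18 fell in the drought leaves. Median log2 fold changes of this set, day 9 over day 6, were 0.20 in drought leaves and -0.53 in controls. Of the 1283 features lower in drought, 330 rose and 68 fell in the controls, and 36 rose and 238 fell in the drought leaves. The medians were -0.38 in drought leaves and 0.33 in controls. These comparisons share the day 9 libraries with the calls, so they describe the sets and do not test them.

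**Figure D4:**
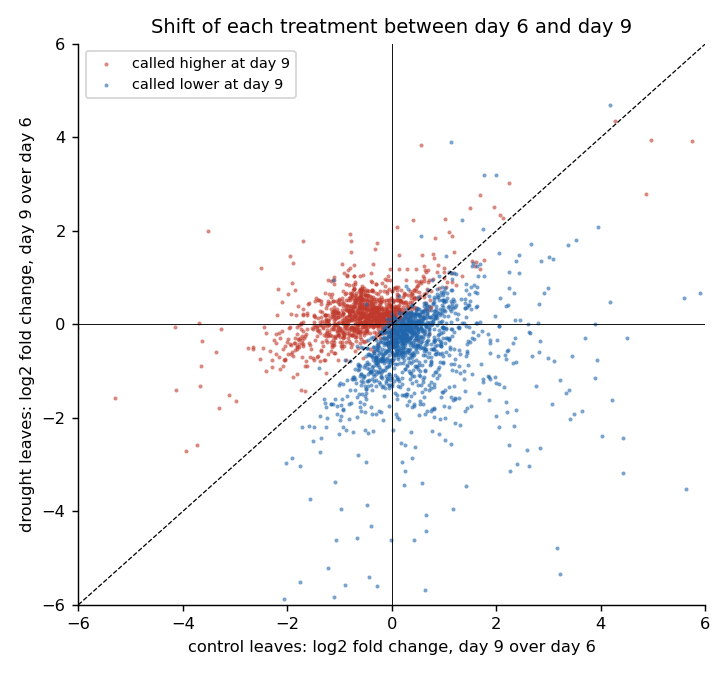
Fitted log2 fold change from day 6 to day 9 in drought leaves (vertical) against that in control leaves (horizontal) for the features called at day 9, latest leaf. The dashed line marks equal shifts, and 8 called features lie outside the axes. Features called higher lie mostly left of 0, with a median shift of -0.53 in controls, and features called lower reach farther below 0 in drought leaves.

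The response at day 9 was then set against that at day 6. At day 6 the fit called 3.75% of the features (2.19% higher and 1.56% lower in drought leaves). Of the day 9 higher set 114 were higher at day 6 too, which is 9.96% of that set and 24.7% of the day 6 list. Of the lower set 157 were lower at day 6 too, 12.2% of the set and 47.9% of the day 6 list. The 2 stages have separate libraries. The median day 6 log2 fold change was 0.09 in the higher and -0.36 in the lower set, against 0.00 over all features. For the features with at least a 4-fold change at day 9 it was 1.40 for the 84 rises and -1.06 for the 331 falls. For those under 2-fold it was 0.04 and -0.21.

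A direct test of the change in response from day 6 to day 9 called 274 features, 1.3% of those tested. The drought-to-control ratio was larger at day 9 for 227 (1.08%) and smaller for 47 (0.223%). Of the 227, 200 belonged to the higher set at day 9, and the median log2 response of the 227 was 0.92 at day 9 and -0.36 at day 6. Of the 47, 31 belonged to the lower set, with medians of -0.87 at day 9 and 0.34 at day 6. The day 9 libraries that chose the sets also enter this test, and it picks features for a gap between the stages. Overlap with the sets and medians of opposite sign are therefore favoured by the choice, and they do not show a reversal. The counts called by this test depended on single libraries. The 274 became 594, 9 and 22 without day 6 control replicates 1, 2 and 3, and 7 and 101 without day 6 drought replicates 1 and 2. They became 87, 920 and 21 without day 9 control replicates 1, 2 and 3, and 3 and 569 without day 9 drought replicates 1 and 3.

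The level of both sets relative to the day 6 controls was followed through the other stages. At drought day 0 the higher set had library medians of -0.08, -0.02 and -0.07 in drought and -0.16, -0.11 and -0.01 in control leaves, which overlapped. The lower set had -0.01, 0.05 and -0.01 in drought and 0.23, 0.19 and 0.16 in control leaves, which did not overlap, on the day the treatment began. At 2 h of rewatering the higher set stood at 0.47, 0.31 and 0.22 in rewatered leaves, against -0.08, -0.03 and -0.01 in controls. The lower set stood at -0.53, -0.28 and -0.18 in rewatered leaves, against 0.11, -0.03 and -0.06 in controls. The median fitted log2 fold change at 2 h, rewatered over control, was 0.35 in the higher and -0.36 in the lower set.

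Later in rewatering both medians had the opposite sign, but no reversal is shown. The fit called 0 of 21037 features at day 3 of rewatering and 0 at day 6. An unadjusted p under 0.05 was found for 1086 features at day 3 and 2723 at day 6. At day 3 the higher set stood at -0.20, -0.17 and 0.06 in rewatered leaves and at 0.06, 0.09 and -0.08 in controls. The lower set then stood at 0.04, 0.24 and -0.21 in rewatered leaves and at -0.16, -0.17 and -0.04 in controls, and the groups overlapped for both sets. At day 6 of rewatering the higher set stood at -0.27, -0.10 and -0.21 in rewatered leaves and at -0.10, 0.02 and 0.00 in controls, with replicate 2 of the rewatered leaves just above the lowest control. The lower set stood at 0.31, -0.15 and 0.15 in rewatered leaves and at -0.02, -0.15 and -0.265 in controls, with overlap. The median fitted log2 fold change, rewatered over control, was -0.13 in the higher and 0.18 in the lower set at day 3, and -0.17 and 0.28 at day 6.

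Single features were named by a rule: called, changed at least 2-fold, a mean of at least 10 CPM in the higher group, and no overlap between the groups. This left 185 higher and 297 lower features, of which the largest fold and the largest difference in CPM were taken in each direction. Their adjusted p at day 9 was under 0.05 by choice.

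Feature 19306 had the largest fitted rise among these. It stood at 57.3 and 100.1 CPM in drought replicates 1 and 3, and at 3.82, 3.73 and 4.30 CPM in control replicates 1, 2 and 3. Both drought libraries were far above controls that hardly differed from each other. The log2 fold change was 4.31 (SE 0.739, edgeR adjusted p = 0.000731). It stayed called in each of the 5 fits without 1 library, at 3.85 to 4.66.

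The rise of feature 19306 was in place by day 6. It then stood at 49.5, 57.0 and 138.9 CPM in drought leaves and 2.49, 13.6 and 10.0 CPM in the irrigated plants, a log2 fold change of 3.23 (SE 0.651, edgeR adjusted p = 0.00783). At day 0 the values were already 17.5, 13.03 and 21.7 CPM in drought leaves and 3.44, 4.23 and 2.77 CPM in controls, without overlap but not called (2.31, SE 0.694, edgeR adjusted p = 0.101). In rewatered leaves at 2 h it had 10.2, 3.77 and 4.87 CPM, against 7.97, 8.87 and 8.37 CPM in controls, and the groups overlapped. Within the drought-treated plants the fall to 2 h was called (log2 fold change -3.645, 2 h over day 9, SE 0.691, edgeR adjusted p = 0.000292). In the second latest leaf at day 9 it stood at 42.7, 29.8 and 86.9 CPM in drought leaves and 8.38, 6.24 and 11.6 CPM in controls (2.60, SE 0.569, edgeR adjusted p = 0.0167).

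Feature 10087 had the largest gain in CPM among the other eligible rises, and it rested on 1 library. It stood at 562.5 and 94.6 CPM in drought replicates 1 and 3, and at 48.0, 94.5 and 34.99 CPM in the controls. Drought replicate 3 and control replicate 2 were thus level. The log2 fold change was 2.48 (SE 0.771, edgeR adjusted p = 0.0359). Without drought replicate 1 it was 0.69 (edgeR adjusted p = 0.711), and the call also ended without control replicate 1 (adjusted p = 0.0987) or 3 (adjusted p = 0.136). In the second latest leaf it had 399.0, 26.0 and 85.7 CPM in drought replicates 1, 2 and 3 and 31.3, 124.4 and 105.6 CPM in controls, and again only drought replicate 1 was high.

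Feature 13035 came first by fitted fall among these. It was at 0 counts in both drought libraries, so its fitted fold and its rank are not supported as a size. It stood at 3.70, 0.828 and 43.7 CPM in control replicates 1, 2 and 3. Control replicate 3 held most of the signal. As an upper limit, 3 counts were set in each drought library (a mean of 0.153 CPM). On that basis the drought mean was at least 105-fold lower than the control mean, most of which came from control replicate 3. The edgeR adjusted p of the fitted fall, not of this bound, was 0.0468. The call ended without control replicate 3 (adjusted p = 0.232), and without drought replicates 1 or 3 (adjusted p = 0.201 and 0.229). It was at 0 in all 3 drought libraries at day 6 as well, against 7.06, 0.197 and 0.563 CPM in controls, and was not called there (adjusted p = 0.22). On day 0 it had 0.349, 0.879 and 0.815 CPM in drought leaves and 25.2, 7.54 and 5.73 CPM in controls.

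Feature 38708 had the largest loss in CPM among the other eligible falls. It stood at 1884 and 1238.5 CPM in drought replicates 1 and 3, and at 3992, 2176 and 5710 CPM in the controls. The lowest control was close to the higher drought library. The log2 fold change was -1.34 (SE 0.413, edgeR adjusted p = 0.0340). Only leaving out control replicate 2 kept the call among the 5 fits without 1 library. The value was -0.98 without control replicate 3 (adjusted p = 0.164). Over the other stages of the latest leaf, its controls ran from 955.9 CPM to 4372 CPM. The nearly empty drought replicate 2 held 6 counts of this feature and 0 of the other 3. As 1 count equals 569.8 CPM there, its rate lay among the controls and above drought replicates 1 and 3. With only 6 counts this rate is imprecise.

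**Figure D5:**
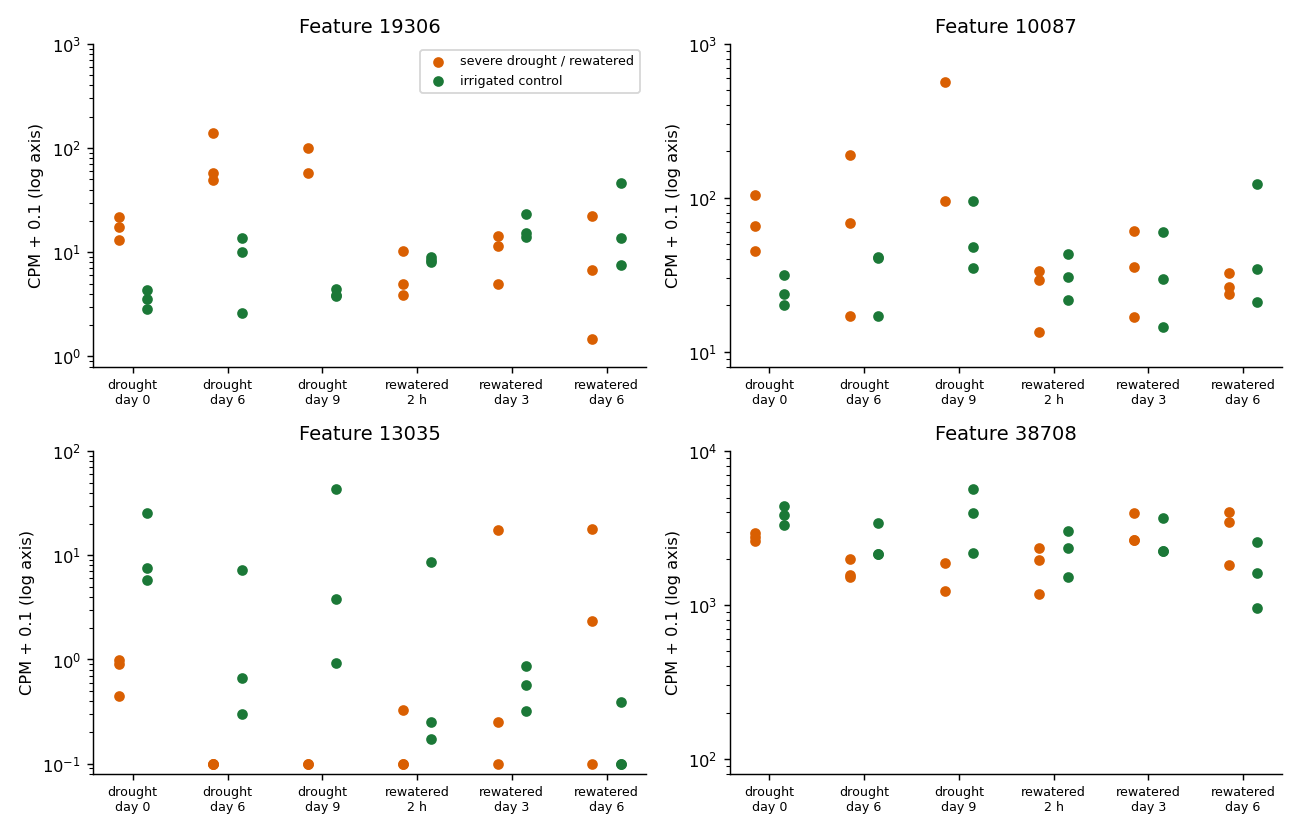
CPM plus 0.1 (log axis) of the 4 named features in each latest leaf library by stage, drought or rewatered plants left of irrigated controls; drought replicate 2 of day 9 is not shown. Feature 19306 is above its controls by day 6 and day 9 and among them from 2 h of rewatering on.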

How the data were processed

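RNA was measured in leaves of IR64 rice by sequencing of poly(A) RNA, in directional libraries per the labels. The file the authors deposited holds unnormalised read counts, 55986 features by 72 columns, and column names were matched to the library names that the labels give. The submitters' processing notes name STAR, featureCounts 2.0.0 and the build IRGSP-1.0. For the STAR version, annotation, strand setting and multi-mapping reads, the sources used here give nothing, so features sharing reads with copies or antisense partners could not be told from others.

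The main test used edgeR 4.0.16 in R 4.3.3 (filterByExpr, trimmed mean of M values, glmQLFit, glmQLFTest, 1 mean per group, no replicate block) over the 35 usable latest leaf libraries, or 71 for the comparison of leaves and 36 for the second latest leaf. DESeq2 1.42.0 was an alternative. Adjusted p-values are Benjamini-Hochberg values over all features tested, called under 0.05. SE is the log2 fold change divided by the square root of the quasi-likelihood F. Levels by stage use log2 CPM with a prior count of 2. The fits were tested on simulated data in which all libraries had the same spread for a given feature. That test does not bear on the dependence of the calls on single libraries.

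Usable totals ran from 6370914 to 24192248, and 3 counts equal 0.136 to 0.376 CPM in the 5 libraries. No replicate pair was a copy: chi-square per degree of freedom was 30.7 to 84.3 within the groups. Members, sets and rules were chosen with earlier results of these data known. Named features were called, at least 2-fold changed, at 10 CPM or more in the higher group and free of overlap between groups, taking the largest fitted fold and the largest CPM difference in each direction. Gene lists and markers were not used because lines have no identifiers. Two-sided exact rank-sum tests of 2 against 3 libraries cannot go below p = 0.2, so none were made.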

Additional observations from a re-analysis of the deposited data

Results flagged for a closer look

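The direct test of the day 9 against the day 6 response in the latest leaf called 227 features with a larger and 47 with a smaller drought-to-control ratio at day 9. They are given here because the response differed between 2 stages under the same contrast. The counts ran from 3 to 920 in all when single libraries were left out, and a fit of the 11 libraries alone called 0, with 3003 at an unadjusted p under 0.05.

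The near-empty drought replicate 2, outside the fit, had 5.36% of its 1755 counts on the features called higher, above the 1.85% to 2.68% in the 3 controls. It is given here because that library was not used in the comparison. The same features held 2.67% to 5.58% of the counts in the 30 latest leaf libraries of the other stages, and 4.28% over all 66 usable libraries outside the comparison, both leaves included. The share was thus above the day 9 controls but inside the range of the other stages. With sets limited to changes of at least 2-fold, a choice made after seeing the data, the share was 0.969%, against 0.947% and 1.05% in drought replicates 1 and 3 and 0.247% to 0.425% in controls. For falls of at least 2-fold it was 1.65%, against 1.17% and 1.42% in drought libraries and 2.46% to 3.86% in controls. How so few counts arose was not tested.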

How the results depend on the processing

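The 2428 calls of drought against control at day 9 became 2433 with relative log expression factors, 2454 with the near-empty library kept, 3012 by DESeq2 and 3621 with low-count features kept. They became 3 from the 5 libraries alone and 1131 with a required 2-fold change, and lay between 545 and 3241 when each of the 5 libraries was dropped in turn. The replicate block gave 2137, of which 1628 were shared with the fit without it. The 274 features whose response differed from day 6 became 1555 without the low-count filter, 675 by DESeq2, 0 from the compared libraries alone, 429 with the replicate block, and 3 to 920 with single libraries left out. For the response between leaves, the 0 calls became 23 without the filter, 3 by DESeq2 and 198 with the replicate block. With single libraries left out they lay between 0 and 114. The cause was not tested, beyond the fewer libraries or features that some of these fits hold. With relative log expression factors the counts of features beyond other-stage controls moved by less than 1.5 times (an alternative added after seeing the data), and the medians over all features stayed within 0.1. No named feature changed direction in any of the fits tried. Same-numbered drought and control libraries correlated in their deviations at 0.172 and 0.037 for replicates 1 and 3, where a drought group of 2 libraries fixes part of the values. Same-numbered leaves correlated at 0.0912 to 0.428 in all 5 pairs, and leaves of different numbers at -0.428 to 0.200. Deviations from a group mean cancel within the group, so the 2 latest leaf drought libraries mirror each other. The -0.428 is thus the 0.428 with its sign changed, and values for different numbers are no separate evidence. The same-numbered values are at most a hint that leaf numbers are shared. It was not taken as pairing, because control replicate 3 correlated no better with its own number (0.0912) than with another (0.0938) and the labels do not say what a number marks. Features of low count are limited by depth most in control replicate 2, where 3 counts equal 0.376 CPM.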
